A study of Rattus norvegicus with 61 samples.

Results

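The genes described here are the 4 receptors for opioid peptides, Oprm1 (mu, NCBI Gene 25601), Oprk1 (kappa), Oprd1 (delta, 24613) and Oprl1 (nociceptin), together with Cnr1, the CB1 cannabinoid receptor. They were chosen by name and not by a cut on their measured values, although earlier results of these data were known. They are 5 of the 14471 genes that the striatal and cerebellar count tables hold between them. All 5 had reads in both regions.

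All of these proteins sit in the cell membrane and couple to inhibitory G proteins, which lower adenylyl cyclase activity, open inwardly rectifying potassium channels and close presynaptic calcium channels. In the striatum the opioid receptors and their ligands, enkephalin from Penk and dynorphin from Pdyn, belong to the circuits of the GABA-releasing projection neurons, and the mu receptor is known for its concentration in the compartments called striosomes. CB1 acts mainly on axon terminals, in the striatum on those of projection neurons and in the cerebellum on the parallel fibres of granule cells and the axons of molecular layer interneurons, where endocannabinoids released by the receiving cell reduce transmitter release.

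RNA was sequenced from punches of striatum and of cerebellum of male Sprague-Dawley rats, adolescent at the time of exposure. Every rat carried an implant under the skin of the back for 28 days from postnatal day 28, so that the sham rats differ from the others in the content of the implant and not in having one. Implants held 0% (sham), 1% (low), 5% (medium) or 10% (high) of 4-OH-PCB52, which is made in the body when a polychlorinated biphenyl (PCB) gains a hydroxyl group. There were 8 sham, 6 low, 8 medium and 8 high libraries of striatum and 7 sham, 8 low, 8 medium and 8 high libraries of cerebellum. The rats came in 4 cohorts, and the cohort of each rat is not given in the labels. The number in each sample title, used below to name a library, was read as the number of the animal. Loadings describe the implant and are not a level of the compound in the brain.

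Striatal libraries held 5850199 to 10944066 counted reads and cerebellar libraries 5420458 to 10994625. Levels are given as CPM, counts of a gene per 1000000 counted reads, after the totals were scaled by the trimmed mean of M values (TMM). A CPM is not divided by transcript length, so levels are compared for 1 gene across libraries and never between genes. In bulk tissue, fewer cells of a type and less RNA per cell cannot be told apart. Of the 61 libraries, 18 stood apart from their region, meaning that their mean log2 CPM over ribosomal protein genes, or over the marker genes of their region's own neurons, was more than 1 log2 unit from the region's median. These were striatal sham 17 and 49, low 20, medium 8 and 41 and high 13, 28 and 44, and cerebellar sham 48, low 6 and 22, medium 8, 24, 40 and 41 and high 28, 43 and 59. Ppp1r1b, the projection neuron phosphoprotein DARPP-32, stood at 197 CPM in striatal sham 17, 213 CPM in low 20 and 264 CPM in high 13. Gabra6, whose GABA receptor subunit marks granule cells, had 1.71 CPM in cerebellar low 22 and 195 CPM in cerebellar medium 40. Marker lists of tissue beside the punch were high in some of these libraries. The mean of a choroid plexus list was 7.25 log2 CPM in striatal sham 17, against a striatal median of 0.87. A list for septum, pallidum and thalamus stood at 5.49 log2 CPM in striatal low 20 and 5.54 in high 13, against a median of 3.02. Striatal sham 48 was also high for that list, at 5.07 log2 CPM, but did not stand apart by this rule. It remains in the values given without the libraries standing apart. Among the 22 striatal libraries kept there, it was the lowest for Oprm1, Oprd1 and Cnr1 (0.723, 2.03 and 180 CPM). A brainstem list reached 4.99 log2 CPM in cerebellar low 22, against a median of -0.28, and a cortical list reached 6.01 log2 CPM in cerebellar medium 40, against a median of 3.84. The part of these differences in the receptor values was not tested. For receptors that passed a filter on low counts, changes at each loading are given with and without the libraries standing apart.

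Promoter sequences matched 2 of the 5 genes by gene ID, Oprd1 and Oprm1, the second with 2 annotated starts. The 250 bases before the start are printed for Oprd1, whose level separated the regions, and for the first listed start of Oprm1, whose level did not, so that the letters can be set beside the levels. They are RefSeq sequences on the build GRCr8 and not on the build of the counts. Capitals mark the E-box CACGTG, which reads the same on both strands and is known in the mouse Oprd1 promoter as a site bound by the factor USF.
Oprd1, chr5:149625000-149625249, minus strand: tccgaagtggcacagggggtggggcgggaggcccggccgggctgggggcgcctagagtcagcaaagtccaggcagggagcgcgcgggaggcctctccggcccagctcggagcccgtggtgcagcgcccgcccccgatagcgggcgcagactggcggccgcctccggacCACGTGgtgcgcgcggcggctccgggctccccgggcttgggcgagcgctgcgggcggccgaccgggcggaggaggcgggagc
Oprm1, chr1:45585733-45585982, plus strand: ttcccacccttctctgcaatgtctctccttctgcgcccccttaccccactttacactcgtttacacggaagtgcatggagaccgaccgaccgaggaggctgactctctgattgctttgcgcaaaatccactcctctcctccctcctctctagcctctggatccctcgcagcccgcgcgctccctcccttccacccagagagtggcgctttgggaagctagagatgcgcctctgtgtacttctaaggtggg
The Oprd1 window held 1 E-box, beginning 82 bases before the start, and neither Oprm1 window held one. Across all 33469 promoters of this length in the RefSeq table, 5.59% held an E-box. G and C made up 79.6% of the Oprd1 window, 58.4% of the printed Oprm1 window and 36.4% of the window at the other Oprm1 start, against a median of 51.2% over all promoters. The GC box GGGCGG, read on either strand, matched 4 times in the Oprd1 window and not in either Oprm1 window, and 30.5% of all promoters held it. These matches describe letters only.

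The first comparison asks in which of the 2 regions each receptor is transcribed, using the sham rats. Oprk1 and Oprd1 were far higher in striatum than in cerebellum, with no overlap between the libraries, while Oprm1, Oprl1 and Cnr1 did not pass the test. The fit was edgeR's quasi-likelihood test over all 61 libraries, and a gene was called at a Benjamini-Hochberg adjusted p under 0.05. The regions differ widely: 5431 of the 12616 genes tested were called, 20.9% higher and 22.1% lower in striatum, and 17.5% had no overlap between the sham libraries of the 2 regions.

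Oprk1 encodes the kappa receptor, whose ligand is dynorphin. In sham striatum it ranged from a lowest value of 8.95 CPM through a median of 24.9 CPM to a highest value of 34.2 CPM, against 0, 0.122 and 0.510 CPM in sham cerebellum. The lowest striatal library was thus above the highest cerebellar one, and 3 of the 7 cerebellar sham libraries had no read. A count of 0 in those 3 allows up to 0.373, 0.468 and 0.534 CPM, taking 3 reads as the limit, which covers counting error only. The log2 difference between striatum and cerebellum was 6.89 ± 0.69 (SE, adjusted p = 4.94e-12, edgeR). All 30 striatal libraries had at least 38 reads of Oprk1, against at most 23 in any of the 31 cerebellar libraries.

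Oprd1 encodes the delta receptor, which binds enkephalin. Its lowest, median and highest values were 1.56, 8.93 and 13.2 CPM in sham striatum, against 0, 0 and 0.498 CPM in sham cerebellum, where 4 of 7 libraries had no read. The groups did not overlap, and the log2 difference was 5.72 ± 0.86 (SE, adjusted p = 1.86e-07, edgeR). Without the libraries standing apart the difference was 5.72 for Oprd1 and 6.94 for Oprk1, both still called. Across exposures the separation of Oprd1 was not complete. Striatal low 20 had 0.296 CPM (2 reads) and striatal high 13 had 0.364 CPM (3 reads), within the range of the cerebellar libraries, and both were among the libraries poor in Ppp1r1b.

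Oprm1 encodes the mu receptor, the main target of morphine. Sham striatum had a lowest value of 0.723, a median of 3.83 and a highest value of 6.56 CPM, against 0.243, 2.38 and 3.85 CPM in sham cerebellum. The ranges overlapped, and the log2 difference of 0.71 ± 0.60 (SE) did not pass the test (adjusted p = 0.357, edgeR), with a 95% interval of -0.49 to 1.92. The counts behind these levels were low, at 236 reads over the 8 striatal sham libraries and 110 over the 7 cerebellar ones.

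Oprl1 encodes the receptor for nociceptin, a peptide related to dynorphin that the classical opioid receptors do not bind. Its sham values were 5.89, 10.1 and 33.9 CPM in striatum (lowest, median and highest), against 3.27, 7.55 and 11.9 CPM in cerebellum. The highest striatal value came from sham 17, the library poor in projection neuron markers and rich in choroid plexus markers. Its cortical list and its list for septum, pallidum and thalamus were also high, at 5.03 and 4.29 log2 CPM, against striatal medians of 2.10 and 3.02. The remaining striatal sham libraries reached at most 14.9 CPM. The log2 difference was 0.72 ± 0.47 (SE, adjusted p = 0.221, edgeR) with the libraries standing apart and 0.24 without them (adjusted p = 0.513), and was not called either way.

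Cnr1 had sham values of 156, 369 and 663 CPM in striatum and 72.1, 650 and 686 CPM in cerebellum (lowest, median and highest). Only 1 of the 7 cerebellar libraries, sham 48, was below 412 CPM. The log2 difference of -0.57 ± 0.55 (SE) was not called (adjusted p = 0.430, edgeR), and it was -0.52 without the libraries standing apart (adjusted p = 0.100). The spread of Cnr1 is given as a description. Its coefficient of variation was 69.1% over all 30 striatal libraries and 52.7% over all 31 cerebellar ones. Outside the libraries standing apart, it was 56.9% over 22 striatal libraries and 13.1% over 21 cerebellar ones. The cerebellar libraries left out all lay at or under 318 CPM of Cnr1, so most of this contrast between regions came with leaving them out. Outside the libraries standing apart, the striatal values ran between 180 and 1499 CPM and the cerebellar ones between 412 and 766 CPM, all exposures together.

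**Figure D1:**
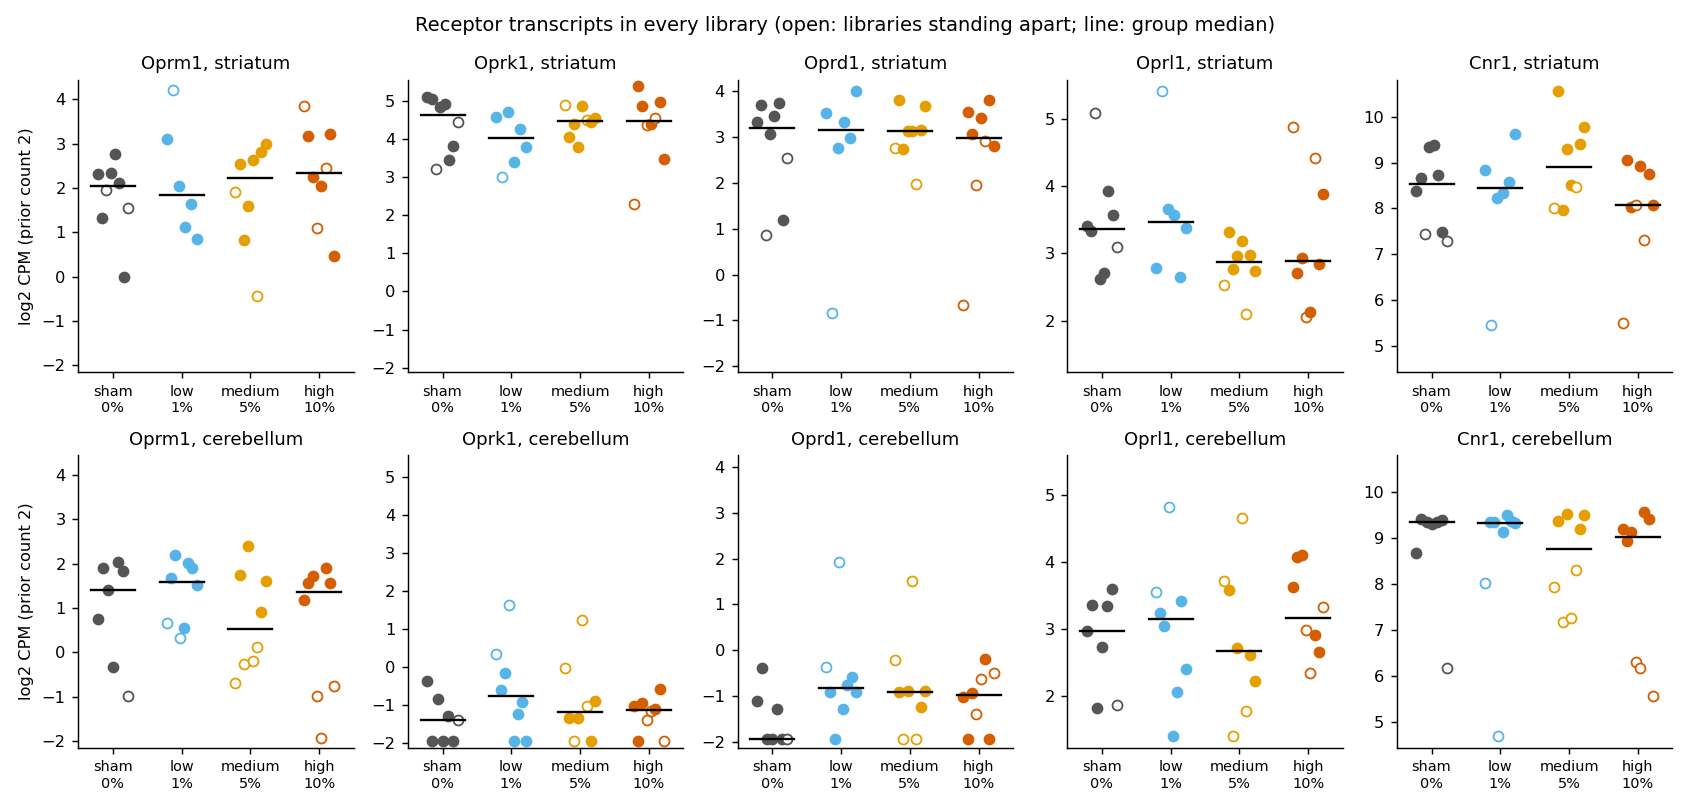
Level of each receptor transcript (log2 CPM with a prior count of 2) in each of the 30 striatal libraries (top) and 31 cerebellar libraries (bottom), by implant loading. Each point is a library, open points are the libraries standing apart and the line is the group median. Oprk1 and Oprd1 lie far lower in cerebellum, and the highest Oprl1 and the lowest Cnr1 value of each region are open points.

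The main comparison asks whether the exposure changed these transcripts. No receptor transcript was called at any loading in either region. The groups overlapped for every receptor gene tested in all 6 comparisons of a loading with sham. Such a complete separation was rare among all genes too, with 0.0734, 0.0245 and 0% of genes at the low, medium and high loading in striatum and 0, 0 and 0.0167% in cerebellum. No gene of any kind was called in these 6 comparisons (0% of the 12267 genes tested in striatum and of the 11946 tested in cerebellum), so the absence of a call is not particular to the receptors. At an unadjusted p under 0.05 there were 471, 453 and 141 striatal genes at the low, medium and high loading (3.84, 3.69 and 1.15%), none of them a receptor, and 182, 170 and 1394 cerebellar genes (1.52, 1.42 and 11.7%), none of them one of the 3 receptors that passed the filter on low counts there. In DESeq2, 1 gene was called at the high loading in cerebellum and none in the other 5 comparisons, and no receptor was among the calls. Over the 40 receptor results for single loadings, any exposure and trend, the lowest adjusted p in the edgeR fit or any alternative was 0.443. Tested over all loadings together, any exposure gave 3 calls in striatum (0.0245% of genes, and 2.02% at an unadjusted p under 0.05), the choroid plexus genes Ttr, Slc4a5 and Kl, and none in cerebellum (0%, and 10.3% unadjusted). The linear trend with loading gave none in either region (0%, and 0.970% unadjusted in striatum, 20.6% in cerebellum). The cerebellar trend depended on the sham 48 library, without which 1635 genes were called, none of them a receptor. The 3 striatal calls were lost without sham 17, the library rich in choroid plexus markers. All 3 loadings of a region are set against the same sham libraries, so their values are not independent of each other.

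In striatum, Oprm1 had medians of 3.83 CPM in sham, 3.34 CPM at the low, 4.51 CPM at the medium and 4.83 CPM at the high loading. Its lowest and highest values were 0.723 and 6.56 CPM in sham, 1.54 and 18.2 CPM at the low, 0.471 and 7.64 CPM at the medium and 1.12 and 14.2 CPM at the high loading. The 2 values above 10 CPM came from low 20 and high 13, the libraries poor in Ppp1r1b and rich in septal, pallidal and thalamic markers. The log2 changes over sham were 0.73 ± 0.56 at the low, 0.21 ± 0.53 at the medium and 0.73 ± 0.52 at the high loading (SE, edgeR adjusted p of 0.905 or above). Without the libraries standing apart the changes were -0.02, 0.40 and 0.51. Without low 20 alone the change at the low loading was 0.03, and without high 13 alone the change at the high loading was 0.42. The change at the medium loading ran from 0.04 to 0.39 when 1 library at a time was left out.

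Oprk1 medians in striatum were 24.9 CPM in sham and 16.3, 21.9 and 21.8 CPM at the low, medium and high loading. The lowest and highest values were 8.95 and 34.2 CPM in sham, 7.69 and 25.9 CPM at the low, 13.5 and 29.7 CPM at the medium and 4.61 and 41.9 CPM at the high loading. The highest value, in high 14, and the lowest, in high 13, thus belonged to rats of 1 group. The log2 change over sham was -0.43 ± 0.36 at the low loading, -0.03 ± 0.33 at the medium and 0.01 ± 0.33 at the high loading (SE). These were -0.43, -0.28 and 0.09 without the libraries standing apart, none called.

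Oprd1 kept nearly the same median in the 4 striatal groups: 8.93 CPM in sham and 8.70, 8.53 and 7.69 CPM at the low, medium and high loading. The sham libraries spread over 1.56 to 13.2 CPM, the low over 0.296 to 15.9 CPM, the medium over 3.65 to 13.8 CPM and the high over 0.364 to 13.7 CPM. The log2 changes were 0.10 ± 0.53, 0.10 ± 0.49 and -0.06 ± 0.49 (SE), each smaller than its error, and 0.11, 0.04 and 0.08 without the libraries standing apart. At this spread the 95% intervals reached -0.98 and 1.18 at the low, -0.90 and 1.10 at the medium and -1.07 and 0.94 at the high loading, so changes up to that size lie within the error.

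Among the receptor genes that passed the filter on low counts, Oprl1 had the smallest unadjusted p for a loading against sham. At the medium loading in striatum its lowest, median and highest values were 4.00, 7.04 and 9.67 CPM, against 5.89, 10.1 and 33.9 CPM in sham. The groups overlapped, since the highest medium value was above the lowest sham values. The log2 change was -0.85 ± 0.43 (SE, unadjusted p = 0.0570, edgeR adjusted p = 1.00), and -0.34 without the libraries standing apart (adjusted p = 0.912). No medium library was poor in projection neuron markers, whose list mean ran between 8.60 and 9.07 log2 CPM there, whereas sham, low and high each held at least 1 such library (lowest list means of 4.88, 5.46 and 5.65 log2 CPM). The part of those markers in the Oprl1 value was not tested. The changes at the low and the high loading were 0.22 ± 0.45 and -0.12 ± 0.42 (SE), and -0.07 and -0.33 without the libraries standing apart.

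Cnr1 had striatal medians of 369 CPM in sham and 350, 497 and 270 CPM at the low, medium and high loading. The highest library of the region, medium 10, reached 1499 CPM, and the lowest were low 20 with 43.9 CPM and high 13 with 45.0 CPM. The log2 changes over sham were 0.03 ± 0.50, 0.72 ± 0.46 and -0.28 ± 0.46 (SE) at the low, medium and high loading, none called (unadjusted p = 0.130 at the medium loading). The changes without the libraries standing apart were 0.02, 0.70 and -0.16 (adjusted p = 0.890 at the medium loading). The medium value was 0.39 without medium 10 and 0.24 with the mean of the neuron list as a covariate. The medians did not follow the order of loading, and the linear trend of Cnr1 with loading was -0.15 ± 0.49 log2 units per 10% loading (SE).

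**Figure D2:**
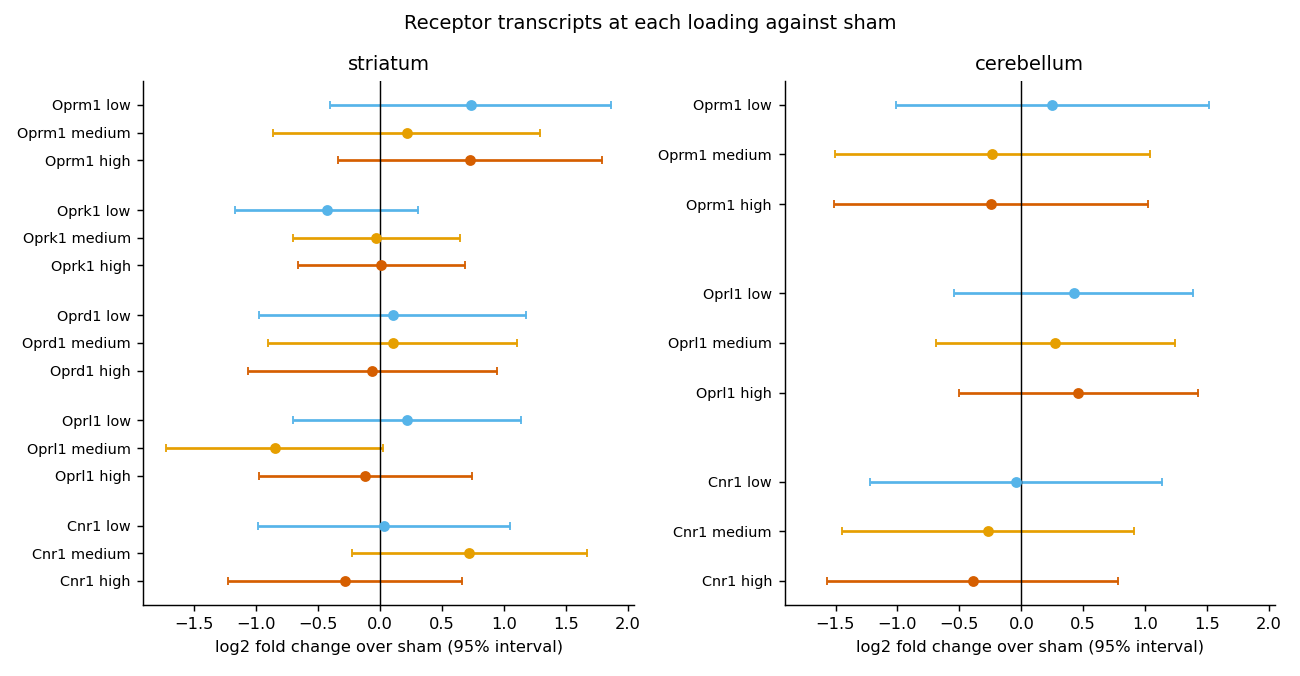
Log2 fold change of each receptor transcript at the low, medium and high loading over sham in striatum (left) and cerebellum (right), with 95% intervals from the edgeR fit. Points are estimates and bars their intervals; every interval crosses 0, and Oprk1 and Oprd1 are not plotted for cerebellum, where they did not pass the filter on low counts.

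In cerebellum, 3 of the 5 receptors (Oprm1, Oprl1 and Cnr1) passed the filter on low counts. Oprm1 medians were 2.38 CPM in sham and 2.76, 1.23 and 2.34 CPM at the low, medium and high loading. Its log2 changes were 0.25 ± 0.62, -0.23 ± 0.62 and -0.24 ± 0.62 (SE), and without the libraries standing apart they were 0.31, 0.34 and 0.17. The 1 cerebellar library with no read of Oprm1 was high 43, where 3 reads would have been 0.579 CPM.

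Oprl1 medians in cerebellum were 7.55 CPM in sham and 8.63, 6.10 and 8.73 CPM at the low, medium and high loading. Its 2 highest values were 27.8 CPM in low 22 and 25.0 CPM in medium 40, the libraries that stood at 1.71 and 195 CPM for Gabra6. The remaining cerebellar libraries were at or under 16.9 CPM. The log2 changes were 0.42, 0.28 and 0.46 at the low, medium and high loading (SE of 0.47 each), and without the libraries standing apart -0.30, -0.18 and 0.54, none called.

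Cnr1 medians in cerebellum were 650 CPM in sham and 648, 454 and 524 CPM at the low, medium and high loading. Its values fell into a dense band and a sparse tail. Outside the libraries standing apart the groups spanned 412 to 686 CPM in sham, 562 to 729 CPM at the low, 591 to 739 CPM at the medium and 491 to 766 CPM at the high loading. All 10 libraries standing apart lay at or under 318 CPM, with sham 48 at 72.1, low 22 at 25.3, medium 24 at 145, medium 40 at 152, high 59 at 46.9, high 43 at 71.8 and high 28 at 78.8 CPM. The log2 changes over sham were -0.04, -0.27 and -0.39 (SE of 0.58 each) with all libraries and 0.09, 0.16 and 0.02 without those standing apart. The libraries standing apart were 1 of 7 in sham, 2 of 8 at the low, 4 of 8 at the medium and 3 of 8 at the high loading.

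Oprk1 and Oprd1 had few cerebellar reads. Each had no read in 9 of the 31 cerebellar libraries, and the sums over the sham libraries were 9 reads of Oprk1 and 7 of Oprd1. The highest values of both came from the same libraries: low 22, with 2.82 CPM of Oprk1 (23 reads) and 3.55 CPM of Oprd1 (29 reads), and medium 40, with 2.09 CPM (17 reads) and 2.59 CPM (21 reads). In the fit without a filter on low counts, the log2 change at the low loading over sham was 1.94 ± 0.93 for Oprk1 (SE, unadjusted p = 0.0448) and 2.28 ± 0.99 for Oprd1 (unadjusted p = 0.0282), with an edgeR adjusted p of 1.00 for both. Outside the libraries standing apart no cerebellar library exceeded 0.638 CPM of Oprk1 or 0.615 CPM of Oprd1. Low 22 and medium 40 are the same libraries that were highest for Oprl1. Their means over the striatal projection neuron list were 4.12 and 4.84 log2 CPM, against a cerebellar median of 2.80. Single genes of that list differed between them, with Ppp1r1b at 102 CPM in low 22 and 288 CPM in medium 40. Drd1, a dopamine receptor gene, stood at 0.735 and 13.8 CPM. Cerebellar low 6 had a similar list mean of 4.05 log2 CPM, with 1.02 CPM of Oprk1 and 0.510 CPM of Oprd1. The part of these markers in the receptor values was not tested.

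Whether exposure changed the regions differently was tested by the interaction of region and exposure. No gene was called over the 12616 tested (0%, with 525 genes or 4.16% at an unadjusted p under 0.05), and DESeq2 called 7. At single loadings the calls were 0, 0 and 0.00793% of genes at the low, medium and high loading (2.31, 3.58 and 8.05% unadjusted). Oprk1 was the 1 receptor with an unadjusted p under 0.05 (0.0213, edgeR adjusted p = 1.00), and at the low loading its interaction was -2.41 ± 0.90 log2 units (SE, unadjusted p = 0.00972, adjusted p = 1.00). Of the 44 cerebellar reads of Oprk1 in the 8 low libraries, 23 came from low 22. Without the libraries standing apart the unadjusted p of the Oprk1 interaction was 0.803.

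The receptors did not vary together as 1 group. All correlations here are across libraries on log2 CPM after subtracting the mean of the exposure group. They describe libraries that share dissection, depth and composition, and they carry no test. Over the 30 striatal libraries Oprd1 and Cnr1 ran together (r = 0.87), and over the 22 libraries that did not stand apart r was 0.73. Oprk1 and Oprd1 had r = 0.64 over 30 and 0.21 over 22 libraries. Oprm1 and Oprk1 showed the reverse, with 0.03 over 30 and 0.65 over 22. Oprl1 ran against Oprk1 (-0.68 over 30, -0.52 over 22) and against Cnr1 (-0.62 over 30, -0.31 over 22). In cerebellum Oprm1 and Cnr1 had r = 0.81 over 31 libraries and 0.47 over 21.

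Marker lists ran with part of this variation. Oprl1 had a correlation of -0.84 with the striatal projection neuron list over 30 libraries and -0.55 over 22, and Cnr1 one of 0.75 and 0.80. Oprd1 was closest to the list of striosome genes (0.91 over 30, 0.80 over 22), whereas Oprm1, although the classical striosome receptor, had -0.26 and 0.49 with that list. With the projection neuron list Oprd1 had 0.83 and 0.69, and Oprm1 had -0.30 and 0.63. With a list of striatal matrix genes Oprd1 had 0.79 and 0.33, so its correlation was not confined to striosome genes. Oprm1 ran against the ribosomal protein list, with -0.72 over 30 and -0.88 over 22 striatal libraries and -0.89 over 31 and -0.57 over 21 cerebellar libraries. Over the 22 striatal libraries Oprd1 (-0.73), Cnr1 (-0.66) and Oprk1 (-0.58) ran against that list too. In cerebellum, Cnr1 had a correlation of 0.88 with the granule cell list, 0.92 with the list of molecular layer interneurons and Golgi cells and -0.86 with the ribosomal list over 31 libraries. Over the 21 libraries that did not stand apart these became 0.49, 0.69 and -0.75. Standing apart was itself set by the ribosomal list and the list of the region's own neurons. Leaving those libraries out therefore narrows the range of these lists in both regions. The granule cell list ran from 8.46 to 8.79 log2 CPM over the 21 cerebellar libraries, against 3.58 to 8.79 over all 31.

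**Figure D3:**
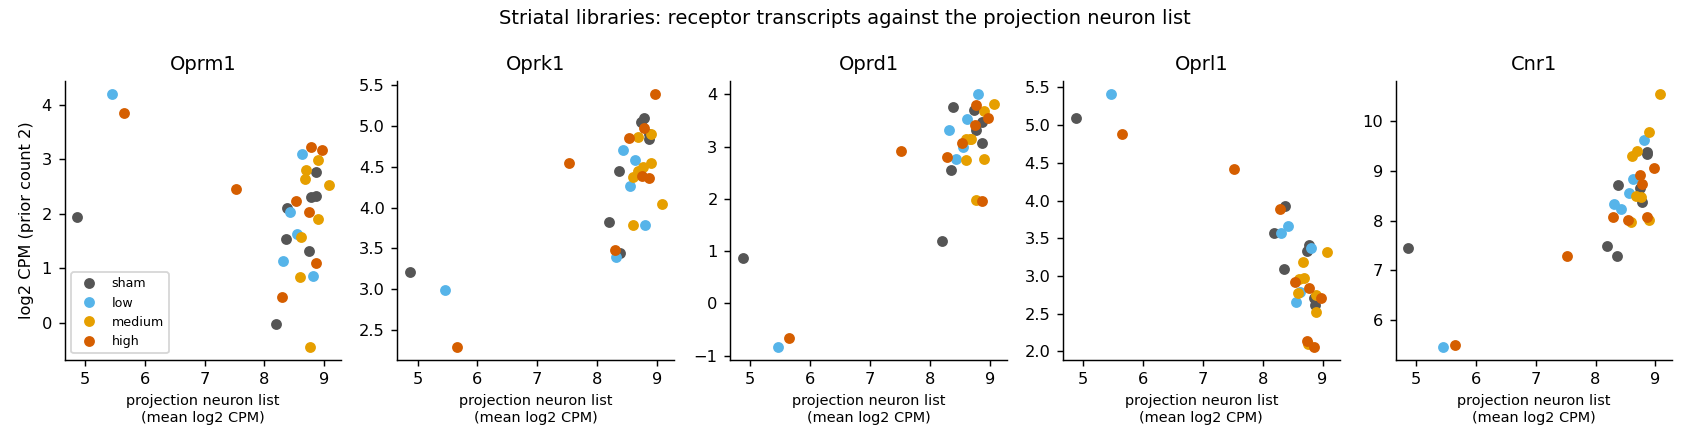
Log2 CPM of each receptor transcript against the mean log2 CPM of the projection neuron list in the 30 striatal libraries, coloured by exposure group. The 3 libraries at the left of each panel (sham 17, low 20 and high 13) have list means between 4.88 and 5.65 and the highest Oprl1 values, and low 20 and high 13 have the lowest Cnr1 and Oprd1 values.

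**Figure D4:**
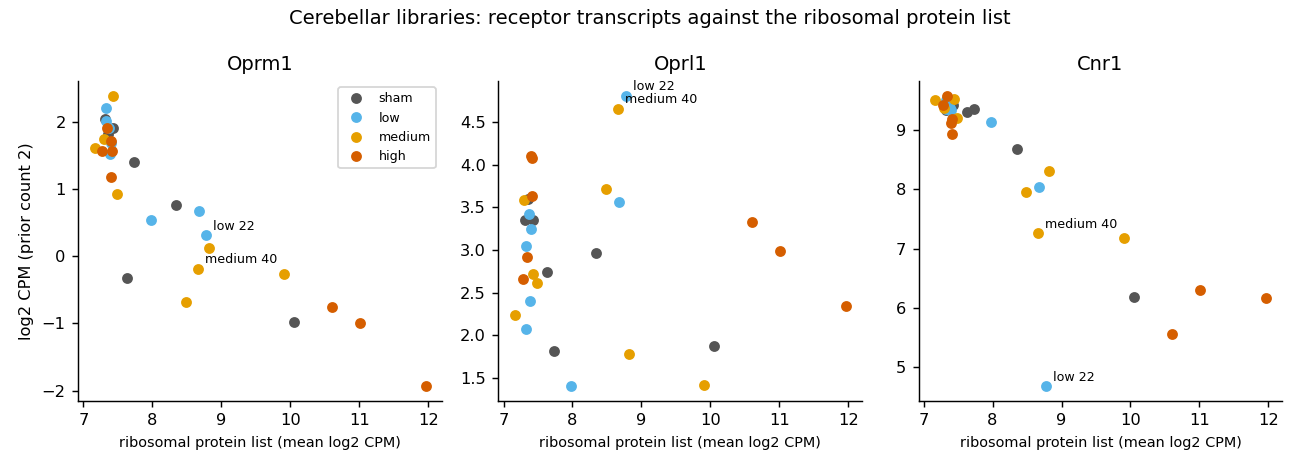
Log2 CPM of Oprm1, Oprl1 and Cnr1 against the mean log2 CPM of the ribosomal protein list in the 31 cerebellar libraries, coloured by exposure group. Oprm1 and Cnr1 are lower where the list is higher, and the 2 highest Oprl1 values belong to low 22 and medium 40.

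The 5 genes whose pattern was most like that of each receptor were listed by correlation, first over all libraries of a region and then without those standing apart. For Cnr1 in striatum they were Slc24a4, Mapk4, Gpr155, Cdh9 and Gad1 (r of 0.95 to 0.93, n = 30). Without the libraries standing apart the first 4 were Gpr155, Ace, Hs6st3 and Clspn (0.98 to 0.93, n = 22). Gpr155, a lysosomal cholesterol-sensing protein, was in both lists, and leaving out the 2 libraries farthest from the median left it at r = 0.97 over all libraries and 0.96 without those standing apart. For Oprk1 they were Synpr, Pnma1, Lrrc4c, Prkar2b and Cap2 (0.90 to 0.88), and then Htr2c, a serotonin receptor, Plppr1, Tug1, Acsl4 and Synpr (0.92 to 0.90), with the synaptic vesicle gene Synpr in both. For Oprd1 they were Sipa1l1, Bcl11b, Speg, Mast3 and Gas7 (0.96 to 0.95). Bcl11b encodes a transcription factor of striatal projection neurons. None of these 5 was among the 5 left without the libraries standing apart, which Cacna1i led (0.93). For Oprm1 the lists were Bzw1, Rgs17, Clvs2, Kantr and Kcnh7 (0.86 to 0.85), and then Myo9a, Hycc2, Dhx15, Akap9 and Cdc73 (0.93 to 0.91). For Oprl1 they were MAST1, Plcxd2, Foxp4, Cacna1g and Nrip3 (0.93 to 0.91), and then Capns1, Pnck, Gfra2, Nnat and Iqsec3 (0.81 to 0.77), with no gene in both. In cerebellum, Cnr1 followed Tiam1, Nptx1, Hnrnpa3, Olfm3 and Map3k5 within r of 0.99 over 31 libraries, and Csmd1 led without those standing apart (0.92, n = 21). Oprm1 was closest to Nfia (0.92) and then Hs6st3 (0.86), and Oprl1 to Camk1g (0.86) and then Phlpp1 (0.88).

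The genes that make, cut and relay the signals of these receptors were taken from 9 lists with 69 genes, of which 65 were tested in the comparison of regions. Between sham striatum and sham cerebellum 25 of the 65 were called higher and 15 lower, and 25 were not called. Over all genes tested 20.9% were called higher and 22.1% lower, and the 15 lower genes made up close to that share. The same shares are the background for the counts of each list. The median log2 difference of the 65 was 0.22, against -0.09 over all genes tested. Of the 4 opioid peptide precursors, 2 were called, both higher in striatum. Pdyn, the dynorphin precursor, averaged 217 ± 87.0 CPM in striatum and 0.380 ± 0.551 CPM in cerebellum (SD, n = 8 and 7), a log2 difference of 9.0 ± 1.07 (SE). Penk, the enkephalin precursor, averaged 1328 ± 553 CPM in striatum and 68.5 ± 16.8 CPM in cerebellum, a difference of 4.25 ± 0.51. Pdyn, Penk, Oprk1 and Oprd1 were thus each higher in striatum. The opioid receptors Oprm1 and Oprl1 were not called between regions. Pomc, the beta-endorphin precursor, and Pnoc, the nociceptin precursor, were not called (-0.21 ± 0.54 and 0.30 ± 0.65).

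Of the 6 enzymes and helpers that process neuropeptides, 4 were called higher in striatum, namely the convertases Pcsk1 (3.37 ± 0.70, log2 difference ± SE) and Pcsk2 (1.82 ± 0.27), carboxypeptidase E (Cpe, 1.43 ± 0.17) and the amidating enzyme Pam (2.70 ± 0.37), and none lower. Of the 5 peptidases that cut opioid peptides, 2 were higher, neprilysin (Mme, 3.23 ± 0.42) and Ace (2.21 ± 0.43), and 1 lower, Dpp3 (-0.34 ± 0.09). The endocannabinoid genes split. In the synthesis list 1 of 6 was higher, the phospholipase Plcb1 (2.17 ± 0.55), and 2 were lower, Plcb4 (-2.56 ± 0.53) and the diacylglycerol lipase Daglb (-0.33 ± 0.10). In the breakdown list 3 of 5 were higher, Ptgs2 (2.11 ± 0.48), Abhd6 (0.34 ± 0.09) and the 2-arachidonoylglycerol hydrolase Mgll (0.54 ± 0.19), and none lower. Cnrip1, whose protein binds the tail of CB1, was the 1 called gene of the 3 tested among other cannabinoid receptors and partners (-1.17 ± 0.22).

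Among 11 G protein subunits 5 were called higher in striatum and 1 lower. The list holds inhibitory alpha subunits with beta and gamma subunits, and the beta and gamma subunits are not confined to inhibitory G proteins. Gng7, the gamma subunit known in striatal projection neurons, averaged 1814 ± 792 CPM in striatum and 5.61 ± 1.17 CPM in cerebellum (SD, n = 8 and 7), a log2 difference of 8.30 ± 0.72 (SE). Gnb2 (1.22 ± 0.24) and Gnaz (0.59 ± 0.16) were higher, and Gnai1 (-1.10 ± 0.24) was lower. Among 11 effectors 3 were higher and 6 lower. The adenylyl cyclases differed in direction, with Adcy5 (3.92 ± 0.40) and Adcy3 (1.78 ± 0.25) higher and Adcy8 (-2.24 ± 0.52) lower, and the P/Q-type calcium channel Cacna1a was lower (-2.19 ± 0.51). Among 14 receptor regulators 5 were higher and 4 lower. The GTPase-activating proteins Rgs9 (6.21 ± 0.57), Rgs14 (7.65 ± 1.03) and Rgs4 (1.74 ± 0.26) were higher, and the receptor kinase Grk2 was lower (-1.24 ± 0.16).

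**Figure D5:**
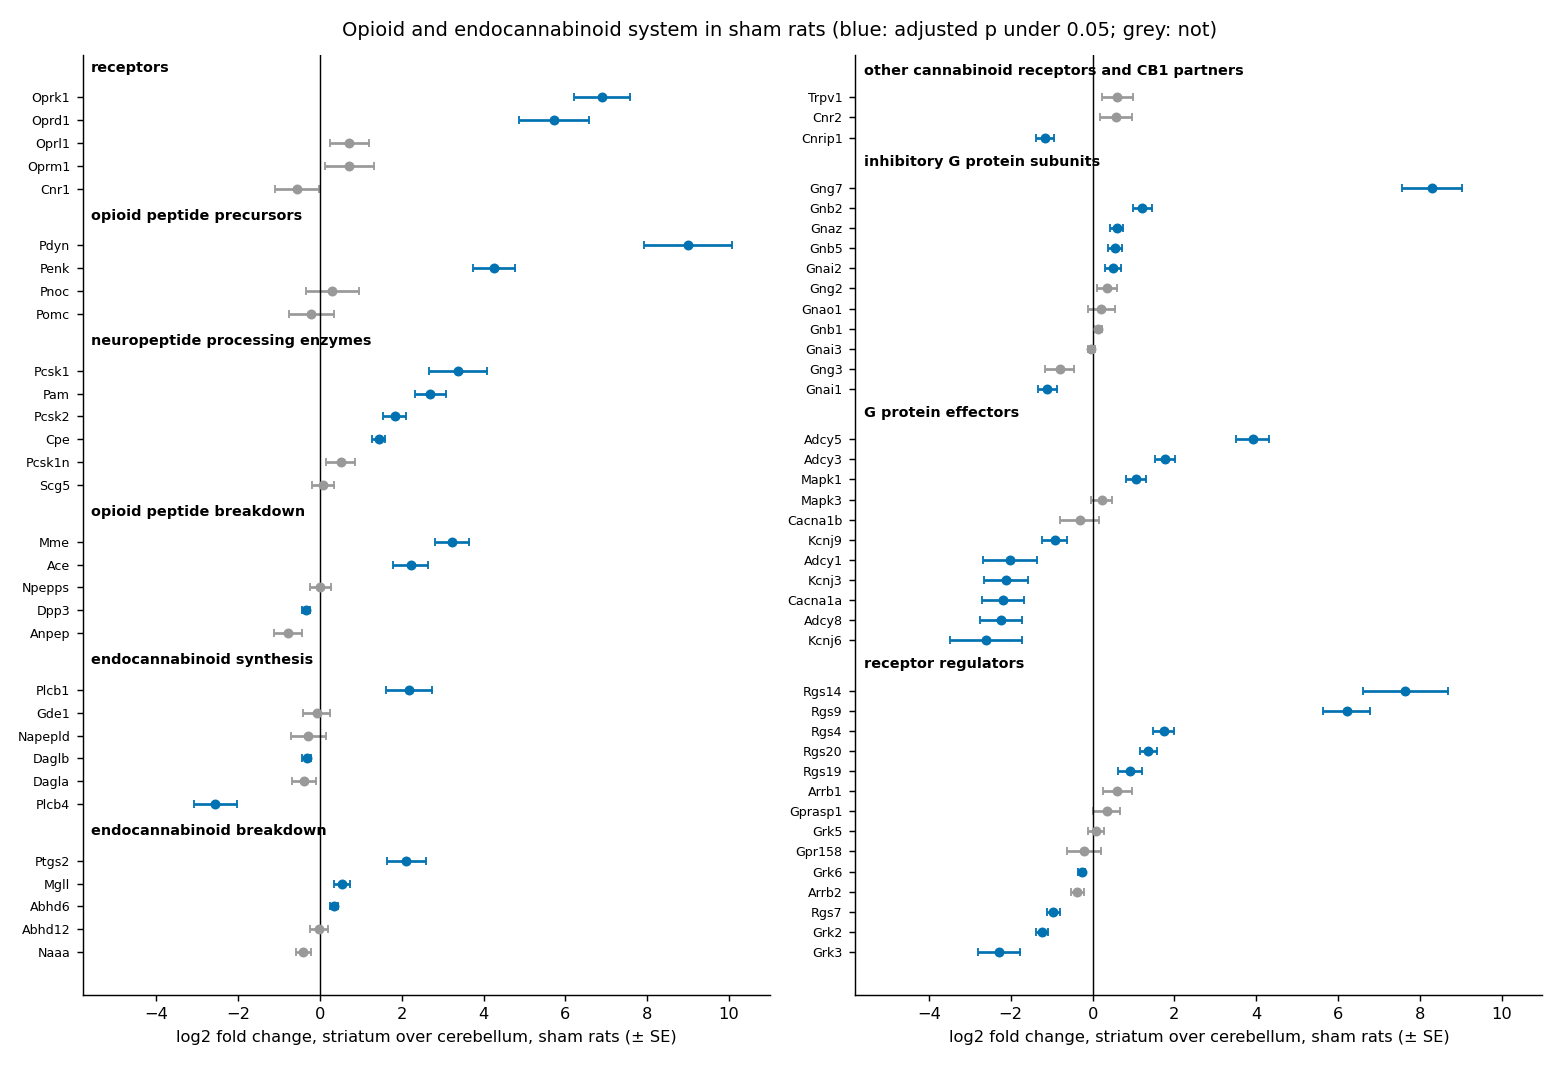
Log2 difference between sham striatum and sham cerebellum (± SE, edgeR) for the 5 receptors and the 65 tested genes of the 9 lists, grouped by list. Positive values are higher in striatum, blue points were called at an adjusted p under 0.05 and grey points were not; Pdyn, Gng7 and Rgs14 lie farthest to the right.

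With exposure, none of the 65 genes tested in striatum or the 62 tested in cerebellum was called at any loading (0% of all genes tested there as well). The medians of the 65 striatal log2 changes were -0.04, -0.02 and 0.00 at the low, medium and high loading, against 0.00, 0.02 and 0.02 over all genes. The medians of the 62 cerebellar changes were 0.05, 0.03 and -0.09, against -0.03, 0.00 and -0.03. The smallest unadjusted p was that of Pnoc in striatum at the medium loading, which averaged 1.81 ± 0.81 CPM there and 6.16 ± 6.43 CPM in sham (SD, n = 8 each), a log2 change of -1.74 ± 0.55 (SE, unadjusted p = 0.00392, adjusted p = 1.00). The SD of Pnoc in sham exceeded its mean. Its receptor Oprl1 was not called in that comparison either, and the Oprl1 change was smaller without the libraries standing apart. Gnai3, an inhibitory alpha subunit, averaged 65.8 ± 5.51 CPM at the low loading and 55.6 ± 5.94 CPM in sham striatum. This was a log2 change of 0.24 ± 0.09 (unadjusted p = 0.00958, edgeR adjusted p = 0.905). Its changes at the medium and the high loading were 0.20 ± 0.08 and 0.17 ± 0.08, not called. The potassium channel gene Kcnj6 averaged 6.72 ± 5.59 CPM at the medium loading and 29.8 ± 53.8 CPM in sham striatum, where the SD exceeded the mean (log2 change -2.16 ± 0.95, adjusted p = 1.00). Cnr2, the CB2 receptor of immune cells, averaged 2.21 ± 0.904 CPM at the medium loading and 1.48 ± 0.449 CPM in sham striatum (0.56 ± 0.27, adjusted p = 1.00). In cerebellum the smallest unadjusted p values were those of Gng7 at the medium loading (12.9 ± 19.5 CPM, against 5.61 ± 1.17 CPM in sham) and Gng3 at the high loading (371 ± 353 CPM, against 197 ± 112 CPM in sham). Their edgeR adjusted p values were 0.999 and 0.420. The SD of Gng7 at the medium loading exceeded its mean. Values of these list genes without the libraries standing apart are not given here.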

How the data were processed

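The values analysed were the whole-number read counts per gene that the authors deposited, 1 table per region, with genes as NCBI Gene IDs. Reads were aligned to rn6 with HISAT2 after FastQC, per the submitters' processing notes, which name no version. Which tool counted, with which strand setting and annotation, is not given in the sources used here, so reads of overlapping genes on opposite strands may be mixed. Either poly(A) capture or ribosomal RNA removal preceded sequencing, per the labels' protocols, which do not tie a method to a library. Genes with under 10 reads over a region, and Faah, Gpr55 and Sgip1, are not analysed here. No column was left without a sample (0 other columns), and no 2 libraries were identical.

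Counts were scaled by TMM and filtered with filterByExpr, which left 12267 genes (striatum), 11946 (cerebellum) and 12616 (both). Each region had its own edgeR quasi-likelihood fit with 4 exposure groups, testing each loading against sham, any exposure, and a linear trend per 10% loading. Regions and their interaction with exposure were tested in a fit of all 61 libraries. All tests were two-sided with Benjamini-Hochberg adjustment over all genes tested and a threshold of 0.05. Log2 CPM carried a prior count of 2. Intervals are two-sided 95% intervals from the t distribution, with the total degrees of freedom of the fit (residual and prior together). The SE is the size of the log2 change over the root of its F value. The labels' count of rats per group was taken to mean separate animals. The procedure was also run on simulated data, whose outcome is not given here and is not used as support. Versions were edgeR 4.0.16, limma 3.58.1 and DESeq2 1.42.0 under R 4.3.3.

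The receptors, lists and tests were chosen with earlier results of these data known. Named were the 5 receptors throughout, up to 4 called genes per list in a comparison, up to 2 per list with the smallest p where none was called, and the 5 genes most like each receptor. Likeness without the libraries standing apart was added after seeing the data. Alternatives were RLE factors, no filter, a mean CPM of at least 1, DESeq2, a block for runs of 15 animal numbers, the neuron list as a covariate, a replicate block for the animal, and leaving out the libraries standing apart or each library in turn. Whether animal numbers pair the regions was checked by correlating deviations from group means.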

Additional observations from a re-analysis of the deposited data

Results flagged for a closer look

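Groups of 4 to 10 libraries were searched for a receptor value far from the rest of its group. The measure was the gap to the nearest library as a share of the group's range, both on log2 CPM. The values below are printed as CPM. Of 40 groups, 7 held such a value, and they came from 4 libraries, all of them among those standing apart. The cut is set to flag about 1 in 20 groups of independent, normally distributed values. These groups are not independent, since the receptor genes share libraries, and many cerebellar libraries had no read of Oprk1 or Oprd1. The number of flags is therefore not compared with chance. Striatal low 20 had 3 of them: 0.296 CPM of Oprd1 (next 6.52 CPM), 42.4 CPM of Oprl1 (next 12.4 CPM) and 43.9 CPM of Cnr1 (next 301 CPM). Striatal high 13 had 0.364 CPM of Oprd1 (next 3.63 CPM). Cerebellar low 22 had 3.55 CPM of Oprd1 (next 0.510 CPM) and 25.3 CPM of Cnr1 (next 261 CPM). Cerebellar sham 48 had 72.1 CPM of Cnr1 (next 412 CPM), with a ribosomal protein list mean of 10.0 log2 CPM against a cerebellar median of 7.43.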

How the results depend on the processing

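Oprk1 and Oprd1 stayed called between regions, and no receptor was called for a loading, any exposure or the trend, under every alternative run. The replicate block for the animal gave log2 differences of 6.95 and 5.88 for Oprk1 and Oprd1, called 5530 genes between regions and 0 for the interaction, and changed no receptor's call. Over 29 pairs of libraries with the same animal number the correlation of deviations had a median of 0.35 (range -0.24 to 0.82) and was over 0.1 in 21, and 5 striatal and 4 cerebellar libraries correlated best with their own number.

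Signs of uncalled log2 changes turned as follows, and the cause was not tested. Without the libraries standing apart, striatal values were -0.016 (Oprm1, low), -0.072 (Oprl1, low), 0.077 (Oprd1, high), 0.034 (Oprd1, trend) and 0.035 (Cnr1, trend). Cerebellar values were -0.30 and -0.18 (Oprl1, low and medium), 0.094, 0.16 and 0.018 (Cnr1, low, medium and high) and 0.34, 0.17 and 0.064 (Oprm1, medium, high and trend). With the neuron list as a covariate they were -0.19 (Cnr1, low), -0.33 (Oprd1, medium) and -0.048 (Oprk1, high) in striatum and -0.016 (Oprl1, low) and 0.27 (Cnr1, low) in cerebellum. With runs of animal numbers as a block they were -0.065 (Cnr1, low) and 0.0057 (Oprk1, medium) in striatum.

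Leaving out 1 library at a time, striatal values ran from -0.18 to 0.35 (Oprd1), -0.44 to 0.61 (Oprl1) and -0.32 to 0.26 (Cnr1) at the low loading, the extremes set by low 53, low 20 and sham 17. They ran from -0.15 to 0.079 (Oprk1) and -0.062 to 0.24 (Oprd1) at the medium loading, with sham 17, 1 and 34 left out. At the high loading they ran from -0.18 to 0.17 (Oprk1), -0.23 to 0.12 (Oprd1) and -0.47 to 0.27 (Oprl1), and for the trend from -0.017 to 0.31 (Oprk1), -0.24 to 0.094 (Oprd1) and -0.26 to 0.050 (Cnr1), with high 13, 14 and 58, low 20 and sham 17 left out. Cerebellar values ran from -0.036 to 0.57 (Oprl1, low), -0.24 to 0.14 (Cnr1, low) and -0.16 to 0.42 (Oprl1, medium), with low 22 and 35, sham 34 and 48 and medium 40 left out.

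Counts of called genes moved more. Any exposure in striatum gave 11 without a filter, 10 at a mean CPM of at least 1, 0 without the libraries standing apart, with runs as a block, with the neuron covariate or in DESeq2, and 0 (without sham 17) to 6 (without sham 3) leaving out 1 library. In cerebellum DESeq2 called 1 gene at the high loading, 153 for any exposure and 901 for the trend. Leaving out 1 library gave 0 to 3 for any exposure and 0 to 1635 for the trend there, both highest without sham 48. The interaction gave 7 in DESeq2 and 0 to 4 leaving out 1 library (4 without cerebellar sham 48). Between regions 8434 genes were called without the libraries standing apart. Counting error limits Oprk1 and Oprd1 in cerebellum, where most libraries held under 10 reads of each.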
